A study of Mus musculus with 4 samples.

Results

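The genes of ribosome biogenesis and of RNA polymerase I were examined in leukemia stem cells (LSCs) with and without CD37. The set held 42 genes chosen by their function in the nucleolus, and all 42 were present among the 17104 gene identifiers of the expression table. The cells came from an acute myeloid leukemia (AML) that was started in bone marrow of CD37 fl/fl, Cre+ mice by a retrovirus carrying MLL-AF9 and the fluorescent protein YFP, and that was passed on to new recipients (strain C57, male). YFP+, c-kit+ cells were sorted from bone marrow 6 weeks after transplantation, and poly(A) RNA was sequenced from 2 libraries labelled CD37 fl/fl and 2 labelled CD37 -/-. All 4 libraries thus carried MLL-AF9, the floxed allele and a Cre that is expressed from the broadly active Rosa26 locus and switched on by tamoxifen, and per the methods CD37 -/- cells had been exposed to tamoxifen and CD37 fl/fl cells to corn oil, so that the deletion and the drug cannot be told apart. Since nothing in the labels ties the 2 libraries of a group to separate mice, the p-values measure only the spread between these libraries, which may be technical.

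Depth, as implied by the smallest step of the values, ran from 15327362 to 22627495 reads per library. The listed genes were read deeply, with 233 to 64254 recovered reads per gene and library, so that the counting error was 6.55% at most. Cd37 itself, the deleted tetraspanin gene, had 56.6 and 46.8 FPKM in CD37 fl/fl LSCs and 23.2 and 22.9 FPKM in CD37 -/- (log2 fold change -1.12, SE 0.24, adjusted p = 0.104 by limma). This value counts reads over the whole gene and not only over the floxed exons. Kit, which encodes the sorting marker c-kit, was read in every library (213 to 804 recovered reads), but at a low level. Per exon length it had 1.56 and 2.98 FPKM in CD37 fl/fl LSCs and 3.00 and 3.99 FPKM in CD37 -/-. Both CD37 -/- libraries were higher, but CD37 -/- replicate 1 was nearly level with CD37 fl/fl replicate 2. Of the marker lists for cells that the gate could also hold, 9 of 9 late neutrophil genes were present, and their levels per exon length added up to 52785 and 10587 FPKM in CD37 fl/fl LSCs and 45985 and 28891 FPKM in CD37 -/-. The erythroid list (7 of 8 genes present) summed to 90.0 and 8.19 FPKM in CD37 fl/fl LSCs and 917 and 237 FPKM in CD37 -/-, nearly all of it from globins, while Klf1 and Epor stayed below an FPKM of 1. In the B cell list (4 of 5 present) Pax5 was at or near 0 and Cd79b held nearly all of the level, and in the T and NK cell list (3 of 7 present) no gene reached an FPKM of 1.

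Ribosomes are assembled in the nucleolus. RNA polymerase I transcribes the ribosomal DNA into a long precursor RNA, small nucleolar ribonucleoproteins (snoRNPs) guide its methylation (box C/D) and pseudouridylation (box H/ACA), and a succession of assembly factors cuts and folds it into the small and the large subunit. The pathway is highly active in dividing leukemia cells, and many of its genes are known targets of MYC.

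Loss of CD37 went with higher levels of some of the 42 genes and lower levels of others, and no single one differed past the adjusted threshold. Of the 39 genes that reached the minimum for testing (a mean of 1 FPKM), 18 were higher and 21 lower in CD37 -/-, a split that became 20 and 19 after quantile normalization and 35 and 4 after rescaling each library to the same sum of FPKM (TPM). Of the 39, 0 had an adjusted p under 0.05 by limma with Benjamini-Hochberg adjustment, beside 0% of all 6761 genes tested. At an unadjusted p under 0.05, 3 of the 39 passed (7.69%), against 1626 of all genes tested (24.0%). These were Dkc1 and Ddx18, higher in CD37 -/-, and Nhp2, lower in CD37 -/-. Among all genes tested 16.1% were called higher and 7.96% lower in this way. Limma-voom on the recovered reads, which also covers the 3 genes below that minimum, likewise gave 0 listed genes at an adjusted p under 0.05, and 4 of 42 at an unadjusted p (Dkc1, Ddx18 and Rrs1 higher, Nhp2 lower), against 25.3% of all genes (19.3% higher and 6.08% lower). With FPKM per exon length it was the same 4 genes, against 25.0% of all (18.5% higher and 6.52% lower). The count changed when 1 library was left out, where the lone library of that arm is assumed to vary like the other group. It was 0 of 39 without CD37 fl/fl replicate 1 (16.6% of all genes), 9 without CD37 fl/fl replicate 2 (20.3% of all genes), 2 without CD37 -/- replicate 1 (23.6% of all genes) and 0 without CD37 -/- replicate 2 (12.0% of all genes). Over these 4 fits the log2 fold change ran from -1.21 to -0.61 for Nhp2, from 0.56 to 1.16 for Dkc1 and from 0.37 to 1.09 for Ddx18. The groups did not overlap for 13 of the 39 (8 higher and 5 lower in CD37 -/-), whereas 61.9% of all genes tested did not overlap (38.2% higher and 23.7% lower).

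The median log2 fold change of the 39 genes, on the log2(FPKM + 1) scale, was -0.0084, with a range from -0.91 to 0.86, and that of all genes tested was 0.11. With the FPKM rescaled to TPM both medians moved up, to 0.31 and 0.40, by quantile normalization they were 0.016 and -0.022, and by limma-voom 0.0037 and 0.26, over the 42 and the 13056 genes that it covers. Over the 6673 of these genes that were also tested on log2(FPKM + 1), the limma-voom median was 0.14. Across all genes tested, calls of higher genes made up 66.9% of the calls at an unadjusted p, but 91.5% after TPM rescaling, 47.5% after quantile normalization and 76.0% by limma-voom. The unadjusted 95% interval of a listed gene reached 0.62 to either side of its log2 fold change (median of the 39). Differences smaller than a gene's own interval were not detectable with these libraries. Larger ones, such as that of Nhp2 (-0.91), did not pass the adjusted threshold either. In bulk RNA, fewer cells that use a gene and less of its RNA per cell cannot be told apart.

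**Figure D1:**
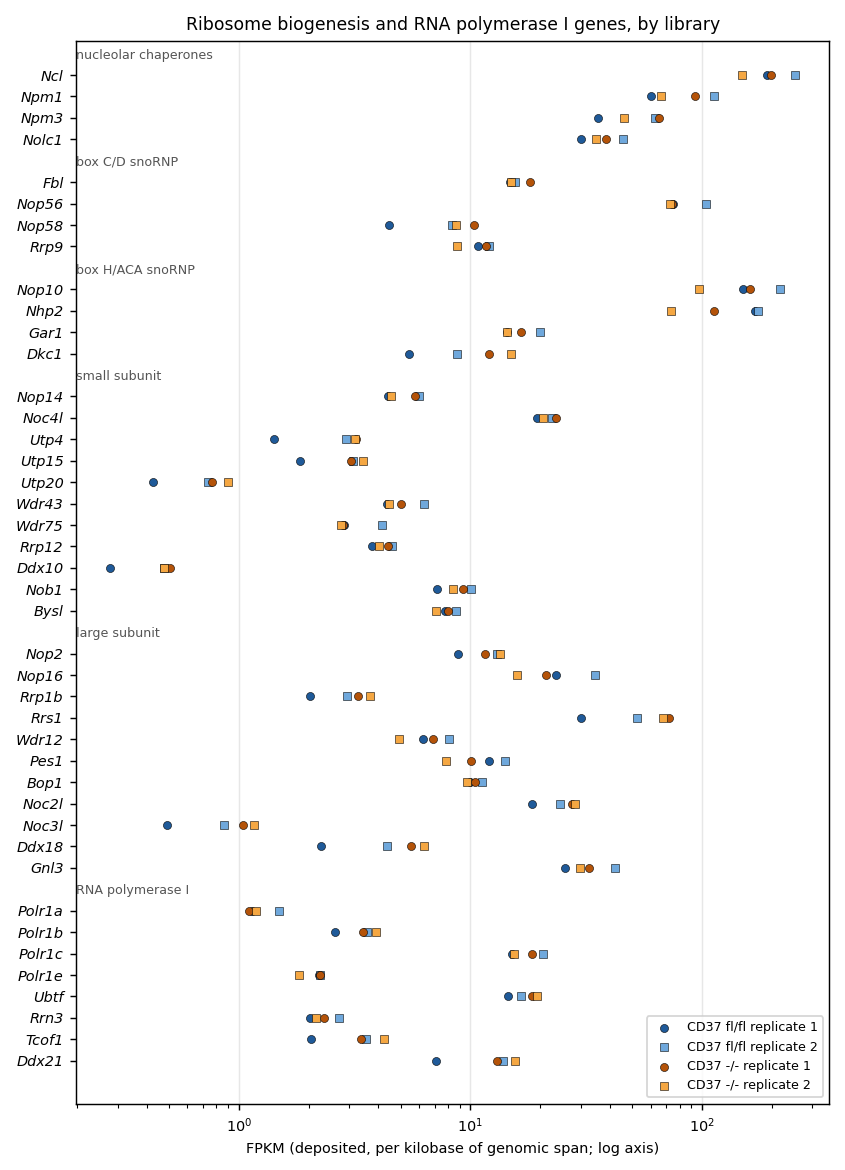
FPKM (log axis) of each of the 42 genes in each library, grouped by role, with circles for replicate 1, squares for replicate 2, blue for CD37 fl/fl and orange for CD37 -/-. CD37 fl/fl replicate 1 is the lowest of the 4 libraries for 28 of the 42 genes.

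**Figure D2:**
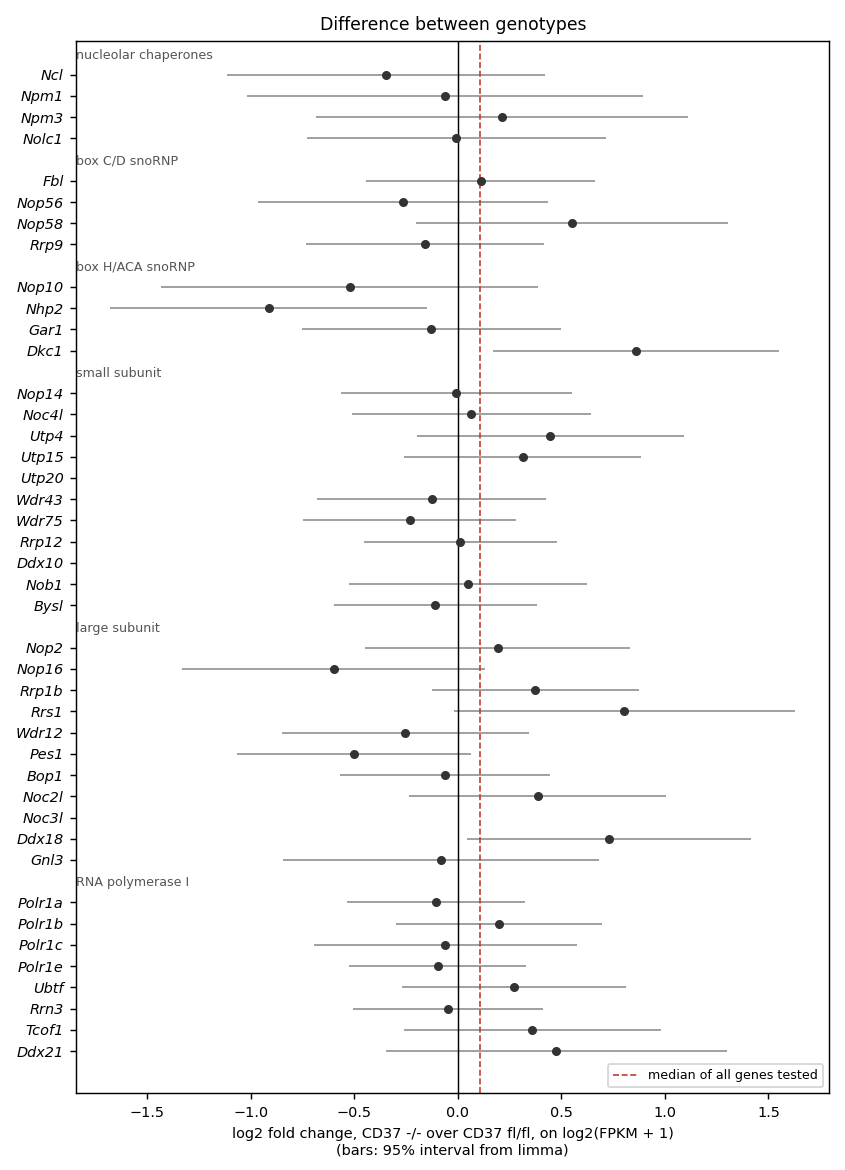
Log2 fold change (CD37 -/- over CD37 fl/fl, on log2(FPKM + 1)) of the 39 genes tested, as points with the 95% interval from limma, grouped by role; the dashed line marks the median of all genes tested and Utp20, Ddx10 and Noc3l have no point. The intervals of Dkc1, Ddx18 and Nhp2 leave out 0.

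A shift common to the listed genes lay between the 2 control libraries. CD37 fl/fl replicate 1 was below replicate 2 in 39 of the 39 genes tested, against 61.2% of all genes tested, and the median difference on the log2(FPKM + 1) scale was 0.43, beside 0.091 for all genes. The ratio of replicate 2 to replicate 1 ran from 1.01 to 2.05 over the 42 genes, with a median of 1.42. Between the CD37 -/- replicates the ratio ran from 0.599 to 1.26, with a median of 0.911, and replicate 1 was below replicate 2 in 11 of 39 genes, against 50.9% of all genes tested. CD37 fl/fl replicate 2 was the highest library for 23 of the 39 genes, against 26.1% of all genes, and CD37 fl/fl replicate 1 was the lowest for 25, against 39.2%. The median coefficient of variation between replicates was 24.3% in the controls and 9.41% in CD37 -/-. Reads of all 42 genes made up 0.873% and 1.21% of the library in the controls, and 1.04% and 0.883% with CD37 deleted. In this share both CD37 -/- values lay between the 2 controls. In summed FPKM (1001 and 1375 against 1144 and 913) CD37 -/- replicate 2 was instead below both controls. The same held for the sum per exon length (2492 and 3376 against 2819 and 2317).

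The late neutrophil genes split the control libraries the other way, 9 of 9 being lower in CD37 fl/fl replicate 2 than in replicate 1. On the log2(FPKM + 1) scale 9 of 9 had a higher mean in CD37 -/-, with a median log2 fold change of 1.02. In mean FPKM, however, S100a9 was at 86.0% of the controls. The groups did not overlap for 4 of the 9, beside 38.2% of all genes tested (higher). At an unadjusted p under 0.05, 0 were called by limma. Limma-voom called 5 higher (19.3% of all genes), and FPKM per exon length 2 (18.5% of all genes). S100a8, a calprotectin subunit of mature neutrophils, had 11446 and 2263 FPKM in CD37 fl/fl LSCs and 11952 and 5552 FPKM in CD37 -/-. Myc, a transcription factor known to drive ribosome biogenesis, had 8.69 and 19.8 FPKM in CD37 fl/fl LSCs and 20.2 and 32.3 FPKM in CD37 -/- (log2 fold change 0.90, unadjusted p = 0.0847, adjusted p = 0.256 by limma). Like most of the listed genes it was lowest in CD37 fl/fl replicate 1. Its highest library was CD37 -/- replicate 2, as for some listed genes such as Dkc1 and Ddx18, while 23 of the 42 were highest in CD37 fl/fl replicate 2. The part of Myc, the late neutrophil genes or the erythroid genes in the values of the listed genes was not tested.

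**Figure D3:**
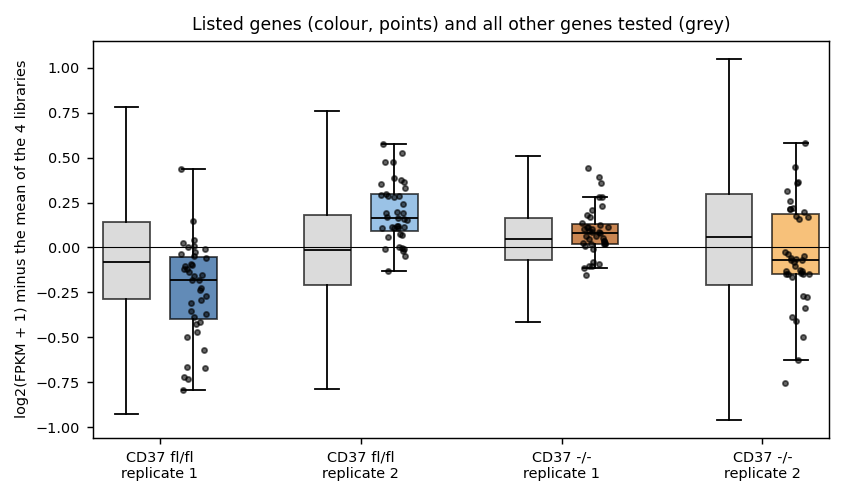
Deviation of log2(FPKM + 1) from the mean of the 4 libraries, for the 39 listed genes (coloured boxes with points) and all other genes tested (grey boxes; boxes span the quartiles and whiskers 1.5 times that range). The listed genes sit below the other genes in CD37 fl/fl replicate 1 and above them in CD37 fl/fl replicate 2.

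RNA polymerase I and its factors (8 genes, all tested) were split, with 4 genes higher and 4 lower. At an unadjusted p under 0.05 by limma 0 of the 8 passed, beside 24.0% of all genes tested. After TPM rescaling 8 of the 8 were higher in CD37 -/-. The highest of them per exon length in the mean of the 4 libraries, though below Ubtf in CD37 fl/fl replicate 1, was Ddx21, a nucleolar RNA helicase, with 7.13 and 13.8 FPKM in CD37 fl/fl LSCs and 13.0 and 15.6 FPKM in CD37 -/- (log2 fold change 0.47). The genotypes overlapped, since CD37 fl/fl replicate 2 lay between the CD37 -/- libraries, and replicate 1 was far below the other 3. Polr1a, the largest catalytic subunit, had 1.14 and 1.49 FPKM against 1.10 and 1.19 FPKM (log2 fold change -0.11). Polr1b, the second catalytic subunit, Polr1c, which RNA polymerase III also uses, and Polr1e had log2 fold changes of 0.20, -0.061 and -0.10. Rrn3, the factor that brings the polymerase to the promoter, had 2.02 and 2.70 FPKM against 2.33 and 2.14 FPKM, with overlap. Of the 8 genes only Ubtf was without overlap, whereas 61.9% of all genes tested did not overlap. Ubtf, which binds the ribosomal DNA promoter, had 14.5 and 16.5 FPKM against 18.4 and 19.3 FPKM (log2 fold change 0.27, SE 0.22, adjusted p = 0.463 by limma). Tcof1, a nucleolar scaffold that partners with it, had 2.05 and 3.56 FPKM against 3.36 and 4.24 FPKM, with the lower CD37 -/- library below the higher control.

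The core scaffold proteins of the box C/D snoRNP are Nop56 and Nop58. Nop56, the highest of the group per exon length, had 74.9 and 104 FPKM in CD37 fl/fl LSCs and 74.1 and 72.5 FPKM in CD37 -/-. Both CD37 -/- libraries were lower, but CD37 fl/fl replicate 1 lay less than 1 FPKM above CD37 -/- replicate 1 (log2 fold change -0.26, adjusted p = 0.579 by limma). Nop58, its partner, had 4.44 and 8.35 FPKM in CD37 fl/fl LSCs and 10.3 and 8.64 FPKM in CD37 -/-, both CD37 -/- libraries being higher (log2 fold change 0.55, SE 0.31, adjusted p = 0.306 by limma). The ratio of Nop56 to Nop58 per exon length was 6.34 and 4.68 against 2.70 and 3.15. It does not depend on the scaling of the libraries, but it was chosen after the values were seen and is given without a test. Nop58 was higher in both CD37 -/- libraries, so a steady level of Nop56 would also give a smaller ratio. Fbl, the methyltransferase, had 14.8 and 15.6 FPKM against 18.05 and 15.0 FPKM, and Rrp9 a log2 fold change of -0.16, both with overlap. Introns and exons of Nop56 and Nop58 hold 5 and 4 annotated snoRNA genes, of which 0 were in the table.

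The box H/ACA snoRNP was the group with the largest differences of either sign. It holds 4 proteins, the pseudouridine synthase dyskerin (Dkc1) and its partners Nhp2, Nop10 and Gar1, which also belong to telomerase. The windows from 250 bases before to 50 bases after their RefSeq gene starts (GRCm38.p6) are printed 5′ to 3′ on the strand of the gene, because Dkc1 and Nhp2 lay at opposite ends of all 39 genes. Capitals mark matches on either strand to CCGGAAGT (a site of the ETS type) or to the TATA element TATAAA, and a search for the E-box CACGTG found no match in these windows.
Nhp2 (chr11:51619523-51619822, plus strand): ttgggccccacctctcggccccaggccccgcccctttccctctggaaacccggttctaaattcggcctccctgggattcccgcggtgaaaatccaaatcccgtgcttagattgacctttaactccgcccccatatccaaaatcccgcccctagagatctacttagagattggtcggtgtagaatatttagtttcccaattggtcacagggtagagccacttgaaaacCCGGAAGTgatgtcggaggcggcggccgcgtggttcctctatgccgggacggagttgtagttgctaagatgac
Nop10 (chr2:112261676-112261975, plus strand): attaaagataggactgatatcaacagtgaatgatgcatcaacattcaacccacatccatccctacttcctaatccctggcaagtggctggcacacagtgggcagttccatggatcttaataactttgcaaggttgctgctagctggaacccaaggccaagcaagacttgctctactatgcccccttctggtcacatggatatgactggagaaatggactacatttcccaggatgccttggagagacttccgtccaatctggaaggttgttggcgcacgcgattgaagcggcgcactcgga
Gar1 (chr3:129831347-129831646, minus strand): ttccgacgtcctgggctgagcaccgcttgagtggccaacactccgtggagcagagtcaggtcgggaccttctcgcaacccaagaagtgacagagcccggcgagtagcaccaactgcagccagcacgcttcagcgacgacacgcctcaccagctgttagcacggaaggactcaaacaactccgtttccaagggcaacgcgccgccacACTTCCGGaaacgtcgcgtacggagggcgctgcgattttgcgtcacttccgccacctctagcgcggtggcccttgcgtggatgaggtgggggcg
Dkc1 (chrX:75095604-75095903, plus strand): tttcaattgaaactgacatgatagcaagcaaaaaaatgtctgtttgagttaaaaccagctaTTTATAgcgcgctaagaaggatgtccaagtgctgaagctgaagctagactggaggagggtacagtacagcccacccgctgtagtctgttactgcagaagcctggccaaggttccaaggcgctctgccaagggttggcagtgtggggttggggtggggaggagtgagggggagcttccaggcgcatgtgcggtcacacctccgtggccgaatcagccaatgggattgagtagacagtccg
The match in Nhp2 begins 23 bases before the gene start and that in Gar1 44 bases before it, on the reverse strand. Dkc1 has a reverse-strand match to the letters TATAAA 189 bases before its start, and Nop10 has no match. The part of these matches in the levels of the 4 genes was not tested.

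Per exon length Nhp2 had the highest mean FPKM of all 42 genes over the 4 libraries (461), although in CD37 -/- replicate 2 Npm1 (272) was above it (256). Nhp2 had 170.2 and 175 FPKM in CD37 fl/fl LSCs and 112 and 73.8 FPKM in CD37 -/-. Both CD37 -/- libraries were below both controls, at 54.0% of the control mean (log2 fold change -0.91 ± 0.31 (SE), unadjusted p = 0.0268 and adjusted p = 0.162 by limma). Dkc1 had 5.44 and 8.78 FPKM in CD37 fl/fl LSCs and 12.0 and 15.0 FPKM in CD37 -/-. Both CD37 -/- libraries were above both controls, by 1.90-fold in the mean FPKM, which the log2(FPKM + 1) scale understates (log2 fold change 0.86 ± 0.28 (SE), unadjusted p = 0.0226 and adjusted p = 0.156 by limma). Nop10 had 150.2 and 216 FPKM in CD37 fl/fl LSCs and 162 and 96.8 FPKM in CD37 -/-, so that the groups overlapped and the lowest value was that of CD37 -/- replicate 2 (log2 fold change -0.52, SE 0.37, adjusted p = 0.405 by limma). Gar1 had 14.5 and 19.9 FPKM in CD37 fl/fl LSCs and 16.6 and 14.3 FPKM in CD37 -/-, with CD37 -/- replicate 2 level with CD37 fl/fl replicate 1.

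Relative to Dkc1, the level of each partner was smaller in both CD37 -/- libraries than in either control. Per exon length the ratio of Nhp2 to Dkc1 was 32.1 and 20.5 against 9.65 and 5.06, that of Nop10 to Dkc1 9.90 and 8.84 against 4.84 and 2.32 and that of Gar1 to Dkc1 2.97 and 2.54 against 1.55 and 1.07. Dkc1 made up 2.17% and 3.04% of the summed level of the 4 genes in the controls and 5.87% and 10.6% in CD37 -/-. These ratios were chosen after the values had been seen and are given without a test. Each divides by Dkc1, which was itself higher in both CD37 -/- libraries, so a partner with a steady level would also give a smaller ratio. The levels of Nop10 and Gar1 themselves overlapped between the groups. The ratios are the same under every scaling of a library, whereas the log2 fold change of Gar1 changed sign after TPM rescaling. At their ends Dkc1 and Nhp2 share 45 and 44 exon bases with genes of the opposite strand, and whether the counting used strand is not given in the sources used here. Mpp1, which overlaps Dkc1, had 4.38 and 3.17 FPKM against 7.69 and 8.76 FPKM, and Rmnd5b, which overlaps Nhp2, 4.51 and 4.03 FPKM against 5.56 and 9.02 FPKM, both thus higher in CD37 -/-.

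**Figure D4:**
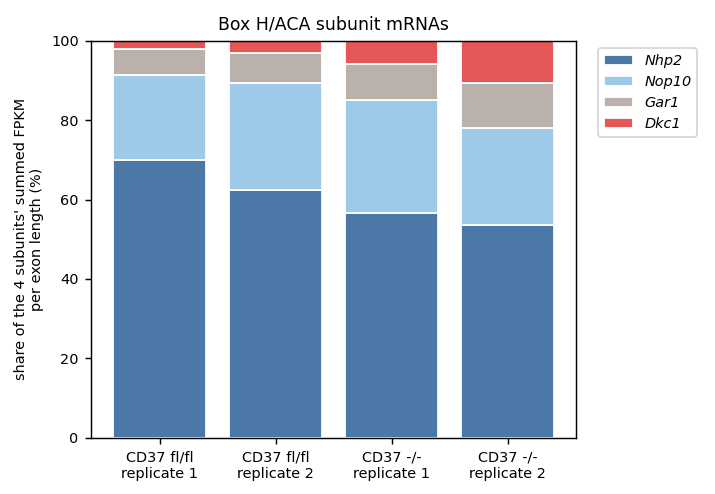
Share (%) of each box H/ACA subunit in the summed FPKM per exon length of the 4 genes, 1 stacked bar per library. The share of Dkc1 is 2.17% and 3.04% in the controls and 5.87% and 10.6% in CD37 -/-.

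The small subunit factors (11 genes) were split as well. Of the 9 tested, 5 were higher and 4 lower in CD37 -/- (9 were higher after TPM rescaling), with log2 fold changes from -0.23 to 0.45. At an unadjusted p under 0.05 by limma 0 of the 9 passed, beside 24.0% of all genes tested. Wdr43, a subunit of the complex that first binds the precursor RNA and the highest of the group per exon length in the mean of the 4 libraries though just below Nop14 in CD37 -/- replicate 1, had 4.38 and 6.31 FPKM in CD37 fl/fl LSCs and 5.02 and 4.47 FPKM in CD37 -/-, with overlap (log2 fold change -0.13). Utp4, of the same complex, had 1.42 and 2.90 FPKM in CD37 fl/fl LSCs and 3.21 and 3.16 FPKM in CD37 -/-. Both CD37 -/- libraries were above the controls, close to CD37 fl/fl replicate 2 and far from replicate 1 (log2 fold change 0.45, SE 0.26, adjusted p = 0.328 by limma). Utp15 and Wdr75, also of this complex, had log2 fold changes of 0.31 with overlap and -0.23 without. Utp20 and Ddx10 fell under the minimum, since their FPKM counts the introns of long genes. Utp20, a scaffold of the small subunit precursor, had 0.425 and 0.736 FPKM against 0.765 and 0.903 FPKM from 523 to 1638 reads, without overlap, and Ddx10, a helicase, 0.279 and 0.475 FPKM against 0.506 and 0.474 FPKM, with overlap. Nop14 and its partner Noc4l, the export factor Rrp12, the endonuclease Nob1 and Bysl had log2 fold changes from -0.11 (Bysl) to 0.064 (Noc4l), all with overlap.

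The large subunit factors (11 genes, 10 tested) were split, with 5 higher and 5 lower in CD37 -/- (8 were higher after TPM rescaling). The groups did not overlap for 6 of the 10, of which 4 were higher and 2 lower, beside 61.9% of all genes (38.2% higher and 23.7% lower). Ddx18, a nucleolar helicase, had 2.25 and 4.35 FPKM in CD37 fl/fl LSCs and 5.53 and 6.31 FPKM in CD37 -/-. Both CD37 -/- libraries were above both controls, by 1.79-fold in the mean FPKM (log2 fold change 0.73 ± 0.28 (SE), unadjusted p = 0.0408 and adjusted p = 0.190 by limma). Its order over the libraries was that of Dkc1. Rrs1, an assembly factor, had 30.1 and 52.6 FPKM in CD37 fl/fl LSCs and 72.3 and 68.2 FPKM in CD37 -/-, without overlap (log2 fold change 0.80, SE 0.33, adjusted p = 0.212 by limma). Noc2l, the highest of the group per exon length in the mean of the 4 libraries though below Nop16 in both controls, had 18.4 and 24.4 FPKM in CD37 fl/fl LSCs and 27.6 and 28.4 FPKM in CD37 -/- (log2 fold change 0.39, SE 0.25, adjusted p = 0.374 by limma). The groups did not overlap there either, and CD37 fl/fl replicate 1 was again the lowest. Its partner Noc3l, below the minimum, had 0.489 and 0.866 FPKM against 1.04 and 1.16 FPKM, and Rrp1b a log2 fold change of 0.37, both without overlap.

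Pes1 and Nop16 were lower in both CD37 -/- libraries. Pes1 had 12.1 and 14.1 FPKM in CD37 fl/fl LSCs and 10.1 and 7.88 FPKM in CD37 -/- (log2 fold change -0.50, SE 0.23, adjusted p = 0.239 by limma). Pes1, Bop1 and Wdr12 form the PeBoW complex, which is needed to process the large subunit RNA. Bop1 had 9.93 and 11.2 FPKM against 10.4 and 9.71 FPKM and Wdr12 6.25 and 8.11 FPKM against 6.88 and 4.89 FPKM, both with overlap. The ratio of Pes1 to Bop1 per exon length was 0.783 and 0.811 against 0.623 and 0.524, so that the controls and the CD37 -/- libraries did not overlap in it. That of Wdr12 to Bop1 was 0.185 and 0.213 against 0.193 and 0.148, with overlap. Both ratios are given without a test. Nop16, which is known as a MYC target, had 23.3 and 34.5 FPKM in CD37 fl/fl LSCs and 21.2 and 15.9 FPKM in CD37 -/- (log2 fold change -0.60, SE 0.30, adjusted p = 0.264 by limma). The methyltransferase Nop2 and nucleostemin (Gnl3) had log2 fold changes of 0.19 and -0.082, with overlap.

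The nucleolar chaperones are among the most abundant nucleolar proteins. All 4 of their genes overlapped between the groups, whereas 61.9% of all genes tested did not overlap. Npm1 (nucleophosmin, often mutated in human AML), the highest of them per exon length in the mean of the 4 libraries though below Ncl in CD37 fl/fl replicate 1, had 60.2 and 112 FPKM in CD37 fl/fl LSCs and 93.2 and 66.4 FPKM in CD37 -/-, both CD37 -/- libraries lying between the controls (log2 fold change -0.063, SE 0.39). Ncl (nucleolin) had 191 and 253 FPKM against 199 and 148 FPKM (log2 fold change -0.35, SE 0.31, adjusted p = 0.502 by limma). Npm3 had 35.7 and 62.4 FPKM against 65.5 and 46.0 FPKM, and Nolc1, a chaperone of snoRNPs, a log2 fold change of -0.0084. For Npm1, Ncl and Nolc1 the highest library was CD37 fl/fl replicate 2. Npm1 may share reads with processed pseudogenes, of which 5 were in the table. Counted with them and scaled to the library total (RPM), Npm1 had 1164 and 2248 RPM in the controls and 1657 and 1355 in CD37 -/-, in the same order as without them. With its 3 pseudogenes, Ddx18 had 49.6 and 101 RPM in the controls and 109.5 and 127 in CD37 -/-, still without overlap. Nop56 with its 3 pseudogenes had 424 and 590 RPM against 421 and 393, also in the same order as without them. For Npm3 the order changed, with 89.8 and 159 RPM in the controls and 155 and 119 in CD37 -/-. CD37 fl/fl replicate 2 was then its highest library, in place of CD37 -/- replicate 1.

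The shortest of the listed genes were mostly lower in CD37 -/-, a property that the choice of genes did not use. The 5 tested genes with under 2000 exon bases (Nhp2, Nop10, Gar1, Nop16 and Npm3) had a median log2 fold change of -0.52, and 1 of them was higher in CD37 -/-. The 1027 protein-coding genes tested of that length had a median of -0.27. From 2000 to under 4000 bases 7 of 16 listed genes were higher, with a median of -0.0078, beside 0.068 for protein-coding genes. From 4000 to under 8000 bases 9 of 14 listed genes were higher, with a median of 0.15, beside 0.21 for protein-coding genes. At 8000 bases and over 1 of 4 listed genes was higher, with a median of -0.18, beside 0.26 for protein-coding genes. Over the 39 genes Spearman's rho between exon length and log2 fold change was 0.15, and over 5768 protein-coding genes tested it was 0.33; genes of a library share its depth and are not independent, so these are descriptions. The part of length in the values of Nhp2 and Dkc1 was not tested.

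**Figure D5:**
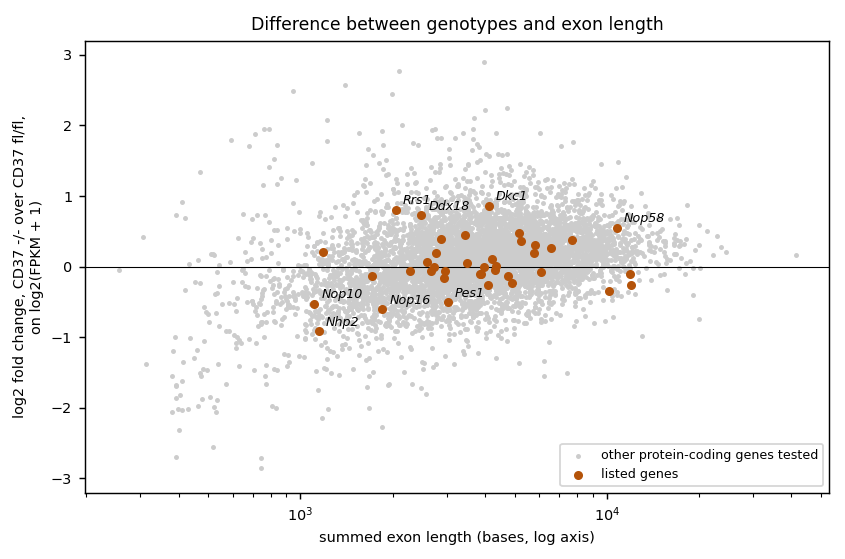
Log2 fold change (CD37 -/- over CD37 fl/fl, on log2(FPKM + 1)) against summed exon length in bases (log axis), for the 39 listed genes (orange) and the other protein-coding genes tested (grey; 5 lie beyond the plotted range). The listed genes under 2000 bases lie mostly below 0, as do the grey points of that length.

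RefSeq promoter windows were matched for 36 of the 42 genes. CACGTG, the E-box that MYC binds, was present for 6 of the 36 (16.7%), namely Nop2, Utp4, Utp20, Pes1, Rrn3 and Wdr43, and for 13.0% of the genes tested. The ETS type site was present for 7 (19.4%), against 12.3%, and the TATA element for 2 (5.56%), against 7.78%. Over all RefSeq genes the E-box was found for 8.09%, the ETS type site for 4.31% and the TATA element for 15.7%. Of the 6 genes with an E-box, Utp20 was below the minimum for testing. The log2 fold changes of the others went in both directions, from Pes1 (-0.50) to Utp4 (0.45).

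Of 124 other genes of the pathway, 112 were tested, of which 7 were higher and 9 lower in CD37 -/- at an unadjusted p under 0.05 (14.3%, beside the 24.0% of all genes) and 0 passed an adjusted p. Their median log2 fold change was -0.055. As among the listed genes, CD37 fl/fl replicate 1 was below replicate 2 in most of them (98 of 112). Other small subunit genes gave 4 higher and 1 lower of 39, other large subunit genes 3 higher and 5 lower of 40, the RNA exosome 0 higher and 2 lower of 13, other RNA polymerase I genes 0 higher and 1 lower of 12, and snoRNP assembly factors 0 of 8. The highest were Tsr1 (log2 fold change 1.70), Wdr3 (1.04) and Mak16 (0.83), which act in the small subunit (Tsr1 and Wdr3) and the large subunit (Mak16). Tsr1 had 0.307 and 0.778 FPKM in CD37 fl/fl LSCs and 2.81 and 5.43 FPKM in CD37 -/- (log2 fold change 1.70, SE 0.30, adjusted p = 0.0790 by limma). Both control values lay under the minimum of 1 FPKM, so Tsr1 was tested only because of its CD37 -/- values. The minimum favours such genes, and the rank and p-value of Tsr1 are to be read with that limit. A pseudocount of 1 understates the change of such low genes, and with 0.1 the log2 fold changes were 2.75 for Tsr1, 1.81 for Wdr3 and 1.48 for Mak16. These rises mean that Wdr3 and Mak16 were low in the controls as well, so their ranks are to be read with the same limit. The lowest were Polr2e (-0.95), a subunit shared by all nuclear RNA polymerases, and the large subunit factors Nsa2 (-0.84) and Mrto4 (-0.82).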

How the data were processed

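Poly(A) RNA from sorted LSCs of 2 CD37 fl/fl and 2 CD37 -/- libraries had been sequenced. As deposited by the authors, the table holds FPKM, 1 column for each library. Per the labels, the authors' notes on processing list fastp 0.20.1, STAR 2.7.7a, featureCounts 2.0.0 and edgeR, with no roles, and the build mm39. The values, however, fit the gene spans of GENCODE M21 (GRCm38), introns included: of 17104 identifiers 17045 (99.7%) were matched, and 16840 genes (98.5%) gave whole reads (within 0.05) in all 4 libraries. Noc2l is not among them, so its reads are approximate. Long genes thus have low FPKM, and levels were compared between genes only per exon length. The depth behind these reads is implied by the values and was not stated by the authors.

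Genes that averaged 1 FPKM or more were tested on log2(FPKM + 1) in limma 3.58.1 (R 4.3.3; lmFit, eBayes with trend, two-sided, Benjamini-Hochberg threshold 0.05), without a block, and the code was tested on simulated data. Other tools were matplotlib 3.10.9, scipy 1.17.1, numpy 2.4.6 and pandas 2.3.3 in Python 3.11.15. Alternatives were a pseudocount of 0.1, all genes above 0, quantile normalization, TPM rescaling, FPKM with exon length, a replicate block, robust estimation and leaving out each library. Limma-voom on recovered reads (mean of at least 10, scaled to library totals) was added after the data were seen. The members and lists were chosen with earlier results of these data known. Library values are given for genes with an unadjusted p under 0.05 and no overlap, and for the highest gene per exon length of each role; the other listed genes with library values (such as Nop10, Nop58, Rrs1, Pes1, Ncl and Ubtf) were chosen after their values were seen. Of 124 other pathway genes the 3 highest and 3 lowest by the same criteria are named. Another 5 genes listed as overlapping the ribosomal DNA were not analysed here. Some marker genes are not reported here.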

Additional observations from a re-analysis of the deposited data

How the results depend on the processing

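No listed gene reached an adjusted p under 0.05 by limma in any of the 13 alternatives, and Dkc1, Ddx18 and Nhp2 kept their direction in all of them. The cause of the changes below was not tested.

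Over all genes tested, those at an adjusted p under 0.05 numbered 0 with log2(FPKM + 1), but 16 with exon length, 88 with robust estimation, 73 with the replicate block and 556 by limma-voom with the replicate block. Those at an unadjusted p numbered 1626, but 2911 with all genes above 0, 2639 with exon length, 3309 by limma-voom, 3403 by limma-voom with the replicate block, and 809 to 1593 with 1 library left out. Listed genes at an unadjusted p numbered 8 of 39 after TPM rescaling, all higher, beside 2293 of 6865 genes in all (33.4%; 2099 higher), and 0 to 9 with 1 library left out. Without CD37 fl/fl replicate 1 or CD37 -/- replicate 2 none remained, and without CD37 fl/fl replicate 2 Nhp2 was lost and 7 others, such as Rrs1 and Nop58, were called. The median log2 fold change of the listed genes was 0.31 after TPM rescaling.

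After TPM rescaling the log2 fold change turned positive for 17 listed genes, namely Nolc1 (0.36), Npm1 (0.31), Nop14 (0.31), Polr1c (0.30), Gnl3 (0.29), Bop1 (0.29), Gar1 (0.23), Bysl (0.23), Rrn3 (0.22), Rrp9 (0.19), Wdr43 (0.19), Polr1e (0.16), Nop56 (0.11), Polr1a (0.11), Wdr12 (0.074), Wdr75 (0.055) and Ncl (0.030). After quantile normalization the sign turned for Npm1 (0.19), Nolc1 (0.10), Ncl (0.018), Gnl3 (0.016), Nob1 (-0.056) and Rrp12 (-0.16), and by limma-voom with the replicate block for Nolc1 (0.0017). With 1 library left out, signs turned within ranges of -0.18 to 0.61 for Npm3, -0.039 to 0.17 for Noc4l, -0.10 to 0.13 for Rrp12, -0.16 to 0.26 for Nob1, -0.065 to 0.45 for Nop2, -0.51 to 0.38 for Npm1, -0.35 to 0.093 for Wdr43, -0.30 to 0.29 for Nolc1, -0.35 to 0.088 for Gar1, -0.19 to 0.18 for Nop14, -0.14 to 0.018 for Bop1, -0.43 to 0.27 for Gnl3, -0.22 to 0.0053 for Polr1a, -0.27 to 0.15 for Polr1c, -0.19 to 0.10 for Rrn3, -0.017 to 0.24 for Fbl, -0.35 to 0.034 for Rrp9 and -0.20 to 0.0029 for Polr1e.

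Same-numbered replicates did not deviate together (correlation -0.042 over genes), and nothing in the labels ties them, so the replicate block stands here only. With it Tsr1 passed (adjusted p = 0.047), and by limma-voom with the replicate block Tsr1 (0.024), Wdr3 (0.026) and Cd37 (0.046). On FPKM, Tsr1 met the minimum for testing only through its CD37 -/- libraries, and Wdr3 was low in the controls as well. The planned TMM scaling of recovered reads was run once and is left out because the deposited unit is FPKM. No listed gene passed an adjusted p in it either, but at an unadjusted p Ddx18 was not called and Nop16 and Pes1 were lower beside Nhp2. With 2 libraries per group, differences smaller than the intervals given above were not detectable.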
